A study of Homo sapiens with 6 samples.

Results

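The 10 genes of iron handling and heme scavenging, TF, TFRC, FTH1, FTL, SLC40A1, CP, HAMP, HPX, HP and LCN2, were followed through RNA-seq of a lenvatinib resistant and a lenvatinib sensitive state of PLC/PRF/5 cells, a line from a human liver cancer (hepatocellular carcinoma). They were taken by symbol, and all 10 were found among the 24432 symbols of the files. The 3 resistant libraries carry the genotype label Lenvatinib resistant and the treatment label Lenvatinib, an oral inhibitor of VEGF and FGF receptor kinases used against liver cancer, and the 3 sensitive libraries carry the labels WT and control. Resistant cells were selected by raising the drug from 20 µmol/L in steps of 0.5 mmol/L at each passage up to 40 mmol/L, as the labels give the units, which do not match between start and steps. Both states were grown in DMEM with 10% serum and penicillin/streptomycin. The labels do not say whether the resistant cells are 1 clone, whether drug was present at harvest, or whether replicates were separate cultures. Drug exposure and resistance therefore cannot be told apart, and p-values measure the spread between these libraries, which may be technical.

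Cells take up iron bound to transferrin through the transferrin receptor, store it in ferritin, a shell of heavy and light chains, and release it through ferroportin. Hepatocytes hold a central place in this traffic: they secrete transferrin, the copper oxidase ceruloplasmin, the heme carrier hemopexin, the hemoglobin carrier haptoglobin, and hepcidin, the hormone that causes ferroportin to be degraded. When cellular iron is low, iron regulatory proteins bind hairpins called iron responsive elements, which blocks translation of ferritin and ferroportin mRNA and stabilizes the mRNA of the transferrin receptor.

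The iron responsive elements are shown because iron regulatory proteins act on these members through them. A loop was searched in GENCODE release 29 protein-coding transcripts (GRCh38) as an unpaired C, 5 bases, the letters CAGTGN with the last base not G, and 5 bases that pair with the first 5, G-T pairs allowed. Such a loop lay in 214 of 19702 protein-coding genes (1.09%) and in 5 of the 10 members. Capitals mark the loop of 6 bases, and all sites are written 5′ to 3′ in the strand of the mRNA.
FTH1, 5′ UTR, chr11:61967574-61967602, minus strand: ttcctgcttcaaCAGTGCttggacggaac
FTL, 5′ UTR, chr19:48965335-48965363, plus strand: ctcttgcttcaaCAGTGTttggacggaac
SLC40A1, 5′ UTR, chr2:189580661-189580689, minus strand: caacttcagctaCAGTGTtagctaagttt
TFRC, 3′ UTR, chr3:196050979-196051007, minus strand: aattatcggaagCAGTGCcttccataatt
TFRC, 3′ UTR, chr3:196050575-196050603, minus strand: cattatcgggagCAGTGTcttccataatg
TFRC, 3′ UTR, chr3:196050510-196050538, minus strand: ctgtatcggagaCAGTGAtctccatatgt
TFRC, 3′ UTR, chr3:196050463-196050491, minus strand: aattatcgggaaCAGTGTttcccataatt
In FTH1, FTL and SLC40A1 the loop stands before the coding sequence, and TFRC carries 4 loops after it. The stem below the unpaired C pairs at 4 of 6 positions in FTH1 and FTL, at 5 in SLC40A1 and at 5 or 6 in TFRC. TF also held a match in its 3′ UTR, with 3 of 6 pairs in the lower stem. A match is a description of letters and shows no binding.

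The files give 1 value per symbol, taken as FPKM, fragments scaled to transcript length and to library size, and read counts are not analysed here. Genes that reached 1 FPKM in 3 or more libraries were tested with limma-trend on log2(FPKM + 1), and a gene was called at a Benjamini-Hochberg adjusted p under 0.05 over all tested genes. "Rose", "fell", "higher" and "lower" are used of called genes. Log2 fold changes are resistant over sensitive on that scale, which understates changes of low values. Low values were multiples of a smallest step of each gene, and that step, which shrinks as depth grows, was 0.989 to 1.02 in relative size across the libraries. Replicates correlated at 0.994 to 0.996 among resistant libraries. Sensitive 1 and 2 correlated at 0.995, while sensitive 3 correlated with them at 0.952 and 0.964. Between the groups the correlation was 0.68 to 0.706 across genes. Mitochondrial mRNAs made up 7.18 to 7.84% of summed FPKM in resistant libraries and 16.3 to 17.4% in sensitive libraries. Hepatocyte markers summed to 15.4 to 39.3 FPKM in resistant libraries and 3690.3 to 3902 FPKM in sensitive libraries. All 9 tested markers were lower in resistant cells, beside 32.5% of all tested genes. Of these 9, 4 passed the filter only through the sensitive libraries, which fixed their direction. The markers of the labelled cell type were thus low in the resistant libraries, and their identity as this line was not tested. Erythroid and endothelial markers were under 1 FPKM in every library. Of 7 macrophage markers in the files, 6 were under 1 FPKM everywhere, and the sum was 2.29 to 3.8 FPKM in resistant and 11.8 to 18.7 FPKM in sensitive libraries. Most of this sum was CD68, at 2.28 to 3.58 FPKM in resistant and 11.7 to 18.2 FPKM in sensitive libraries. Leukocyte and neutrophil markers summed to at most 0.00794 FPKM in resistant libraries and to 3.39 to 4.59 FPKM in sensitive libraries. The sum in sensitive libraries was that of S100A9 alone, with PTPRC at 0 throughout. Fibroblast markers summed to at most 0.236 FPKM in resistant and 1.76 FPKM in sensitive libraries. The part of these differences in the results below was not tested. In bulk RNA, fewer cells of a type and less RNA per cell cannot be told apart.

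**Figure D1:**
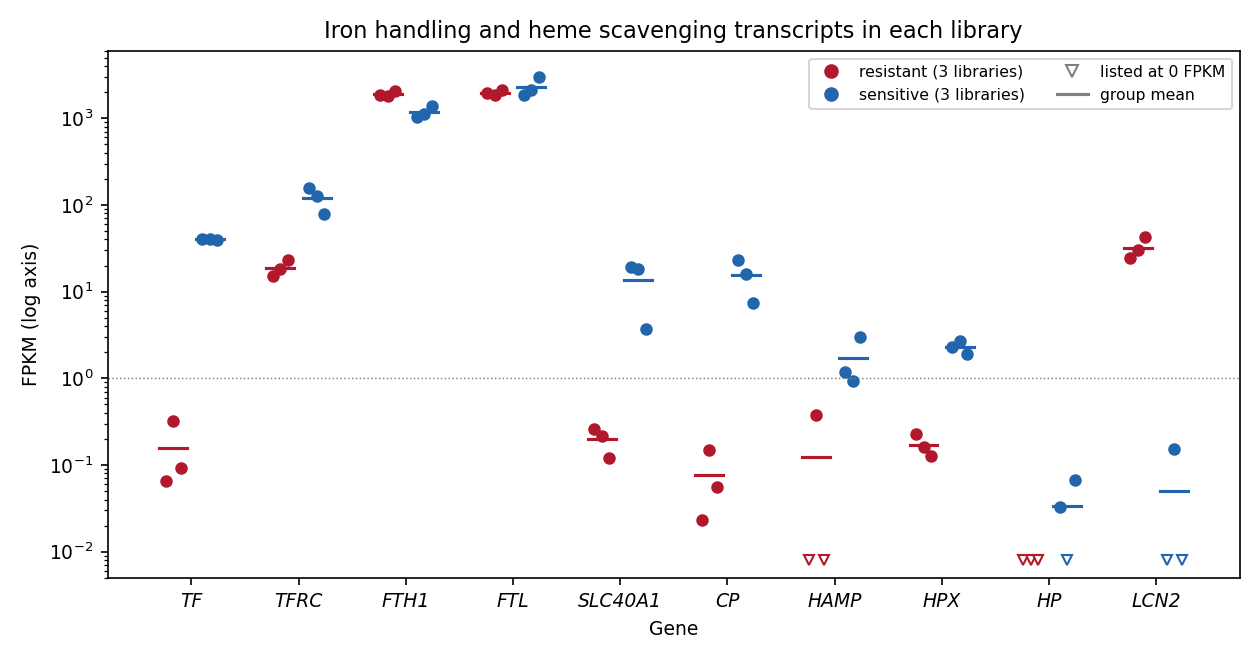
FPKM of each member in the 3 resistant libraries (red) and the 3 sensitive libraries (blue), on a log axis with a bar at the group mean and open triangles for a value of 0. TF, CP, SLC40A1 and HPX lie below 1 FPKM in resistant libraries and above 1 FPKM in sensitive libraries, LCN2 lies the other way round, and FTH1 and FTL are the highest members in every library.

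The mRNAs of transferrin iron uptake, of the carrier and of its receptor, were both lower in resistant cells. TF, which encodes transferrin, read 0.0650, 0.319 and 0.0920 FPKM in resistant libraries 1 to 3, against 40.8, 41.0 and 39.0 FPKM in sensitive libraries 1 to 3. Every resistant value lay under 1 FPKM, and the sensitive values lay within a narrow band. TF thus passed the filter only through the sensitive libraries, which fixed its direction. TF fell by 5.16 in resistant cells on the log2(FPKM + 1) scale (SE 0.129, adjusted p = 4.41e-07), and the mean was 0.159 ± 0.140 FPKM in resistant and 40.3 ± 1.09 FPKM in sensitive libraries (SD, n = 3 each). Because the pseudocount of 1 shrinks changes of low values, the same change was -7.41 with a pseudocount of 0.1. TFRC, the receptor that carries iron-loaded transferrin into the cell, read 15.0, 18.2 and 23.4 FPKM in resistant libraries and 156, 126 and 79.5 FPKM in sensitive libraries. The groups did not overlap, and sensitive 3 was the lowest of its group. TFRC fell by 2.58 in resistant cells (SE 0.271, adjusted p = 0.00016), a mean 6.39-fold below that of sensitive cells. Among the paralogs, MELTF, an iron-binding membrane protein related to transferrin, went the other way. It read 9.91, 10.5 and 11.8 FPKM in resistant libraries, against 4.58, 4.41 and 4.28 FPKM in sensitive libraries (log2 fold change 1.11, SE 0.116, adjusted p = 0.000158).

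Of the ferritin mRNAs, that of the heavy chain rose in resistant cells, and that of the light chain was not called. FTH1 encodes the heavy chain, which oxidizes iron for storage. It read 1849, 1822 and 2051 FPKM in resistant libraries, against 1035, 1120.4 and 1366 FPKM in sensitive libraries. The lowest resistant value exceeded the highest sensitive value, and FTH1 rose by 0.71 in resistant cells (SE 0.133, adjusted p = 0.00282). The change did not pass a test against a 1.5-fold change (adjusted p = 0.386). FTL encodes the light chain, which helps the iron core to form. It read 1929, 1873 and 2088 FPKM in resistant libraries, against 1842, 2115 and 2996 FPKM in sensitive libraries. The groups overlapped, and FTL was not called (log2 fold change -0.21, 95% interval -0.66 to 0.24, adjusted p = 0.35). Its direction turned to 0.20 under quantile normalization (adjusted p = 0.079). Both ferritin chains have processed copies in the genome, none of which is listed by an FTH1P or FTLP symbol, so reads from copies may be counted in either gene.

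Ratios within a library do not depend on its scaling. FTL over FTH1 was 1.04, 1.03 and 1.02 in resistant libraries and 1.78, 1.89 and 2.19 in sensitive libraries. The mRNAs of the 2 chains thus stood near parity in every resistant library, and the mRNA of the light chain prevailed in every sensitive library. Ratios of mRNA do not give the ratio of the chains in ferritin. The mean ratio was 1.03 ± 0.0125 in resistant and 1.95 ± 0.215 in sensitive libraries (SD, n = 3 each), and the exact two-sided permutation test gave p = 0.1, the smallest that 3 against 3 libraries allow. TFRC over FTH1, 2 mRNAs on which iron regulatory proteins act in opposite ways, was 0.0081, 0.00998 and 0.0114 in resistant libraries and 0.15, 0.113 and 0.0582 in sensitive libraries. Its log2 difference was -3.35, and the exact p was 0.1. TF over TFRC was 0.00434, 0.0176 and 0.00392 in resistant libraries and 0.262, 0.324 and 0.491 in sensitive libraries, with a log2 difference of -5.70 and an exact p of 0.1. None of the 3 ratios overlapped between the groups. TFRC over FTH1 could not overlap, because TFRC was below and FTH1 above all sensitive values in every resistant library. TF passed the filter only through the sensitive libraries. Single values of 74.4% of all tested genes did not overlap, so this count is a description.

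**Figure D2:**
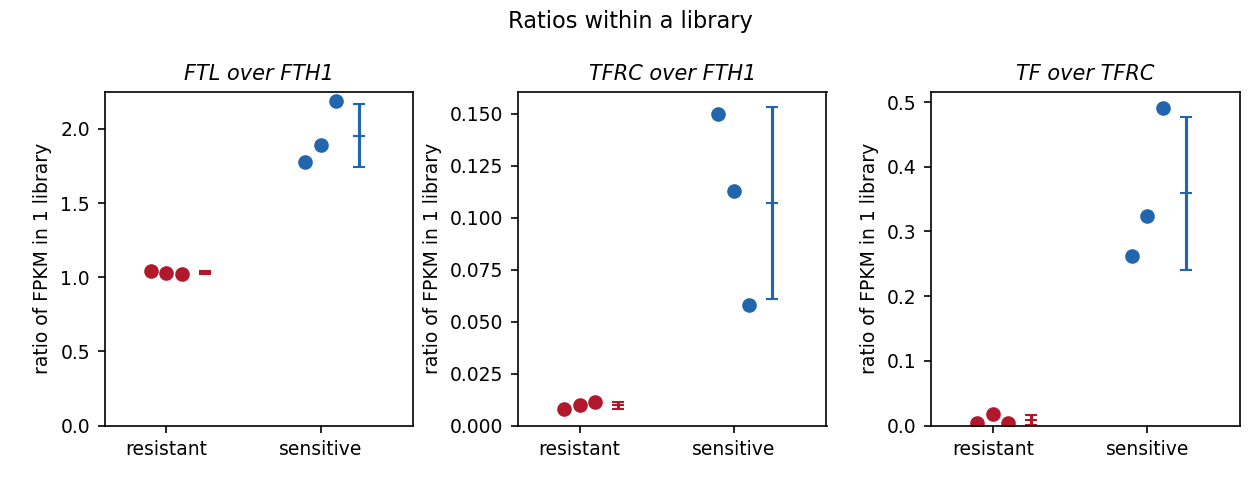
Ratios of FPKM within 1 library for FTL over FTH1, TFRC over FTH1 and TF over TFRC, with resistant libraries left of sensitive libraries, points for libraries and bars for the mean and SD. FTL over FTH1 lies between 1.02 and 1.04 in resistant libraries and between 1.78 and 2.19 in sensitive libraries, and the other ratios lie below all sensitive values in resistant libraries.

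The mRNAs of iron export were lower in resistant cells. SLC40A1 encodes ferroportin, the iron exporter, and read 0.262, 0.218 and 0.119 FPKM in resistant libraries, against 19.4, 18.2 and 3.73 FPKM in sensitive libraries. The groups did not overlap, and sensitive 3 stood at 19.9% of the mean of sensitive 1 and 2. The mean was 0.200 ± 0.0730 FPKM in resistant and 13.8 ± 8.71 FPKM in sensitive libraries, and SLC40A1 fell by 3.36 in resistant cells (SE 0.54, adjusted p = 0.00134), and fell by 4.04 without sensitive 3. CP encodes ceruloplasmin, the ferroxidase that loads exported iron onto transferrin. It read 0.0235, 0.150 and 0.0561 FPKM in resistant libraries and 22.9, 16.2 and 7.44 FPKM in sensitive libraries. Here, too, every resistant value lay under 1 FPKM and sensitive 3 was the lowest of its group. CP fell by 3.81 in resistant cells (SE 0.356, adjusted p = 8.97e-05). SLC40A1 and CP passed the filter only through the sensitive libraries, which fixed their direction. HEPH, a membrane ferroxidase related to ceruloplasmin, was listed at 0 in all resistant libraries and at up to 0.194 FPKM in sensitive libraries, under the level tested.

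HAMP encodes hepcidin. It read 0, 0.375 and 0 FPKM in resistant libraries, against 1.18, 0.921 and 2.99 FPKM in sensitive libraries. The groups did not overlap, but HAMP reached 1 FPKM in only 2 libraries and was therefore not tested. With no filter it was lower in resistant cells by a log2 fold change of -1.20 (SE 0.307, adjusted p = 0.0236), and the exact two-sided permutation test of this gene alone gave p = 0.1. A listed 0 may be an estimate that failed, and the levels are low in both groups.

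The promoter of HAMP is shown because the BMP and IL6 pathways, described next, act on it. For 7 of the 10 members a promoter was matched in the RefSeq table used here (GRCh38.p14), and the 250 bases before the start of HAMP, chr19:35282278-35282527 on the plus strand, are given with GGCGCC and TTCTTGGAA in capitals.
HAMP promoter: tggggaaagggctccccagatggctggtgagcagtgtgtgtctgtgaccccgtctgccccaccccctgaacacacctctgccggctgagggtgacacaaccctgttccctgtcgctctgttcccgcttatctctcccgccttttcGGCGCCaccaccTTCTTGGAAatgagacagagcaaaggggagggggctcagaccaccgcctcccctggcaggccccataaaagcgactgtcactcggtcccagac
GGCGCC, the core of the BMP response element of this gene, lies 105 to 100 bases before the start, and TTCNNNGAA, letters that STAT factors are known to bind, lies 93 to 85 bases before it. Over both strands, GGCGCC lay in 16.4% and TTCNNNGAA in 6.57% of 35116 promoters, and a match of letters is not a binding site.

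The genes known to control hepcidin split in both directions in resistant cells. Of 20 on this list, 16 were tested, 4 were higher and 6 were lower, with a median log2 fold change of -0.02. Over all 11694 tested genes 67.7% were called, 35.2% higher and 32.5% lower, with a median of 0.08. BMP6, the BMP ligand that raises hepcidin when liver iron is high, read 0.526, 0.765 and 0.630 FPKM in resistant libraries and 37.5, 38.7 and 36.4 FPKM in sensitive libraries, a log2 fold change of -4.56 (adjusted p = 4.41e-07). FURIN, a protease that processes the hepcidin precursor, read 17.8, 17.3 and 17.4 FPKM in resistant libraries and 272, 298 and 373 FPKM in sensitive libraries (adjusted p = 8.22e-07). ERFE encodes erythroferrone, known from red cell precursors as a hormone that binds BMP ligands and lowers hepcidin. It was higher, at 26.7, 24.6 and 27.7 FPKM in resistant libraries and 0.961, 1.46 and 0.676 FPKM in sensitive libraries (log2 fold change 3.77). ATOH8, a transcription factor that answers BMP signals, fell by 3.17 in resistant cells (adjusted p = 1.87e-05). The count of higher genes on this list was 7 without sensitive 3, with scaling to the geometric mean library and with limma without the trend, and 2 in the test against a 1.5-fold change. Of the 16 tested, 4 passed the filter through 1 group only, BMP6 and ATOH8 among them.

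Among cytokines and transcription factors known to act on the members, more were higher than lower. Of 20, 19 were tested, 11 were higher and 5 lower, with a median log2 fold change of 0.86. Over all tested genes 35.2% were higher and 32.5% lower. In the test against a 1.5-fold change 8 genes of this list were higher and 5 were lower. Of the 19 tested, 4 passed the filter through 1 group only, which fixed their direction, IL6, HNF4A and ONECUT1 among them. IL6, the cytokine that raises hepcidin and acute phase genes through STAT3, read 317, 308 and 316 FPKM in resistant libraries and 0.239, 0.261 and 0.143 FPKM in sensitive libraries, a log2 fold change of 8.02 (SE 0.0981, adjusted p = 9.14e-08). NFKBIZ, a nuclear cofactor that NF-kB needs at the LCN2 gene in mouse cells, read 42.4, 43.2 and 36.6 FPKM in resistant libraries and 2.98, 2.34 and 2.52 FPKM in sensitive libraries (log2 fold change 3.53). HNF4A and ONECUT1, which drive genes of the hepatocyte, were both lower. HNF4A read 0.0381, 0.0999 and 0.0585 FPKM in resistant libraries and 31.9, 34.8 and 22.2 FPKM in sensitive libraries, and ONECUT1 fell by 3.61 in resistant cells (adjusted p = 3.83e-05).

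The mRNAs of hemopexin and haptoglobin, the carriers of heme and hemoglobin among the members, were at low levels in both groups. HPX encodes hemopexin, and read 0.227, 0.161 and 0.129 FPKM in resistant libraries, against 2.27, 2.66 and 1.92 FPKM in sensitive libraries. The groups did not overlap, and HPX fell by 1.48 in resistant cells (SE 0.107, adjusted p = 2.53e-05). HPX passed the filter only through the sensitive libraries, which fixed its direction. HP encodes haptoglobin. It was listed at 0 in all resistant libraries and at 0.0329, 0 and 0.0673 FPKM in sensitive libraries, far under the 1 FPKM of the filter, and with no filter it was not called (adjusted p = 0.184, exact p of this gene alone 0.4). Reads of HP and its near copy HPR may be split, and HPR was at most 0.0327 FPKM in any library.

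Genes that make heme, move it and break it down were described beside the carriers. Of 12 genes of transport and breakdown, 10 were tested, 2 were higher and 7 lower, with a median log2 fold change of -0.79. Over all tested genes 35.2% were higher and 32.5% lower. In the test against a 1.5-fold change 2 genes of this list were higher and 3 were lower. HMOX1, the inducible oxygenase that opens the heme ring and frees its iron, read 313, 285 and 219 FPKM in resistant libraries and 60.2, 66.6 and 89.5 FPKM in sensitive libraries (log2 fold change 1.91, SE 0.194, adjusted p = 0.000137). SLC48A1, which moves heme out of lysosomes, was also higher (log2 fold change 1.53). AMBP, the precursor of the heme-binding plasma protein alpha-1-microglobulin, fell by 7.54 in resistant cells, and the heme exporter ABCG2 fell by 3.22. ABCG2 passed the filter only through the sensitive libraries, which fixed its direction. Of 11 heme synthesis genes, 10 were tested, 2 were higher and 5 lower, with a median of -0.65, beside the same shares over all tested genes. In the test against a 1.5-fold change 1 synthesis gene was higher and 1 was lower. UROS rose by 1.01 in resistant cells, and FECH, the last enzyme of the pathway, rose by 0.80, a call lost in the test against a 1.5-fold change (adjusted p = 0.0975). CPOX fell by 0.92 (adjusted p = 0.0456), a call that was lost under 9 of 15 alternatives.

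LCN2 was the one member that was high in resistant cells and near 0 in sensitive cells. It encodes lipocalin 2, a secreted protein that binds bacterial siderophores and so withholds iron, and is an acute phase protein of the liver. LCN2 read 24.4, 29.8 and 42.4 FPKM in resistant libraries, against 0, 0.152 and 0 FPKM in sensitive libraries. The mean was 32.2 ± 9.24 FPKM in resistant and 0.0507 ± 0.0878 FPKM in sensitive libraries, and LCN2 rose by 4.95 in resistant cells (SE 0.209, adjusted p = 2.29e-06). LCN2 passed the filter only through the resistant libraries, which fixed its direction. Its promoter is shown because NF-kB and C/EBP factors are known to act on it: 250 bases before the start, chr9:128149203-128149452 on the plus strand (GRCh38.p14), with the matched letters in capitals.
LCN2 promoter: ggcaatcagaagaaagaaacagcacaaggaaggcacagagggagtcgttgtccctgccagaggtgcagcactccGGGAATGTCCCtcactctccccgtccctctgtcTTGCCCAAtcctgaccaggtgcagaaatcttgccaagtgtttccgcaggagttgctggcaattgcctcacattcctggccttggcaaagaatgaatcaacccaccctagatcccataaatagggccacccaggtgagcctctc
GGGA, 4 bases of any kind and CC, the NF-kB letters, match at 176 to 167 bases before the start as GGGAATGTCC and, 1 base on, on the other strand as GGAATGTCCC. TTGCNNAA, a C/EBP match, lies 143 to 136 bases before the start. The NF-kB letters lay in 22.6% and TTGCNNAA in 9.05% of all promoters. Of 4 partners of lipocalin 2, 2 were tested and both were lower, beside 32.5% of all tested genes. Both passed the filter only through the sensitive libraries, so they had to come out lower and their count is no result. SLC22A17, its receptor, fell by 1.24 in resistant cells (adjusted p = 6.74e-05), and BDH2, an enzyme proposed to make a mammalian siderophore, fell by 1.51 (adjusted p = 0.000111). Of 11 other acute phase plasma proteins in the files 5 were tested, 4 were lower and SERPINA3 was higher (log2 fold change 1.17), beside 32.5% lower and 35.2% higher over all tested genes. FGB, ORM1 and SERPINA3 passed the filter through 1 group only, which fixed their direction, so the count is given as a description. A2M fell by 7.18 in resistant cells, FGB fell by 5.49, C3 fell by 4.18 and ORM1 fell by 2.74.

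**Figure D3:**
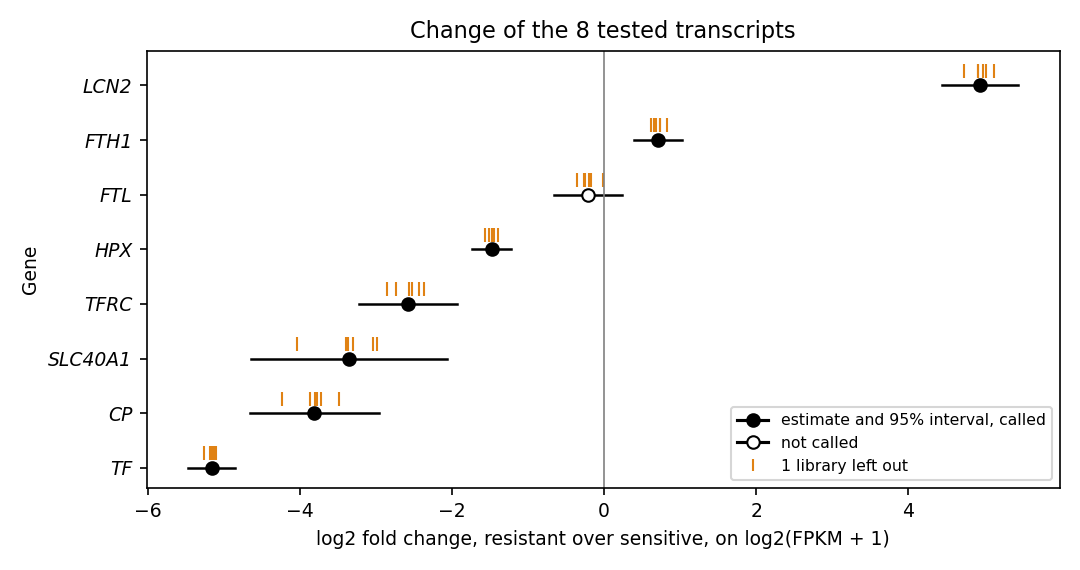
Log2 fold change, resistant over sensitive, of the 8 tested members on log2(FPKM + 1), with the 95% interval as a line and the estimates with 1 library left out as ticks. LCN2 at 4.95 and FTH1 at 0.71 are higher in resistant cells, the interval of FTL crosses 0, and the other 5 are lower.

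Counted together, 8 of the 10 members were tested, 2 were higher, 5 were lower and FTL was not called. The background is 67.7% called over all tested genes, so most genes of any kind would be counted here. Values of 7 of the 8 did not overlap between groups, beside 74.4% of all tested genes. Of the 8, TF, SLC40A1, HPX and CP passed the filter only through the sensitive libraries and LCN2 only through the resistant libraries, so these 5 had to differ and their count is no result. TFRC, FTH1 and FTL exceeded 1 FPKM in every library.

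Beyond the members, most tested genes of iron uptake were lower in resistant cells, and the sensors split. Of 10 uptake and reduction genes in the files, 7 were tested, 1 was higher and 5 lower, with a median of -0.70. Over all tested genes 35.2% were higher and 32.5% lower. In the test against a 1.5-fold change 1 uptake gene was higher and 2 were lower. CYBRD1, a ferric reductase, read 8.31, 9.74 and 13.0 FPKM in resistant libraries and 0.0764, 0.0929 and 0.0601 FPKM in sensitive libraries (log2 fold change 3.38). CYBRD1 passed the filter only through the resistant libraries, which fixed its direction. SLC39A14, which brings iron that is not bound to transferrin into hepatocytes, read 47.1, 45.9 and 48.7 FPKM in resistant libraries and 128, 132 and 109 FPKM in sensitive libraries. STEAP1 fell by 1.32 in resistant cells, and SLC11A2, which moves iron out of endosomes, fell by 0.72, a call lost in the test against a 1.5-fold change (adjusted p = 0.458). FBXL5 encodes the iron sensor that directs iron regulatory proteins to degradation. It read 14.3, 13.5 and 14.8 FPKM in resistant libraries and 5.46, 4.90 and 5.23 FPKM in sensitive libraries, a log2 fold change of 1.30 (SE 0.109, adjusted p = 5.29e-05). IREB2, which encodes iron regulatory protein 2, fell by 1.07 in resistant cells (adjusted p = 0.0369), a call lost under 9 of 16 alternatives. ACO1, which encodes iron regulatory protein 1, was not called, at 15.3, 13.6 and 13.1 FPKM in resistant libraries and 18.9, 19.1 and 15.2 FPKM in sensitive libraries. On the list of 7 tested sensing and ferritin turnover genes 2 were higher and 3 lower, with a median of -0.32. These counts, too, stand beside 35.2% higher and 32.5% lower over all tested genes. HERC2, a ubiquitin ligase, fell by 0.56, and PCBP1, which delivers iron to ferritin, fell by 0.41 in resistant cells. These calls were lost under 5 and 8 of 16 alternatives. The 3 lower calls fell to 0 in the test against a 1.5-fold change and without resistant 1, without resistant 2 or without sensitive 2. They fell to 1 without resistant 3, with no filter, with the replicate number as a block and with rescaling without mitochondrial mRNAs. Without sensitive 3 they became 5. The 2 higher calls became 1 without resistant 1 and in the test against a 1.5-fold change.

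Among genes of mitochondrial iron use and of copper handling, more were lower than higher. Of 14 genes of mitochondrial iron and iron-sulfur clusters, all 14 were tested, 2 were higher and 9 lower, with a median of -0.92. Over all tested genes 35.2% were higher and 32.5% lower. In the test against a 1.5-fold change the lower calls on this list were 5. The higher calls became 1 under 8 of 16 alternatives, among them those without resistant 1, resistant 2, resistant 3 or sensitive 2. SLC25A37, the importer mitoferrin 1, was higher, at 12.8, 13.5 and 15.1 FPKM in resistant libraries and 2.24, 1.97 and 1.41 FPKM in sensitive libraries (log2 fold change 2.37, adjusted p = 1.38e-05). NFS1, the cysteine desulfurase that supplies sulfur to the clusters, fell by 1.49 in resistant cells, and FDX1 fell by 1.28 and CISD1 fell by 1.27. Of 6 copper genes 1 was higher and 4 lower, with a median of -0.83, beside the same shares over all tested genes. In the test against a 1.5-fold change 0 copper genes were higher and 2 were lower. ATP7B, the pump that loads copper onto ceruloplasmin, read 1.43, 1.53 and 1.46 FPKM in resistant libraries and 9.65, 10.1 and 8.17 FPKM in sensitive libraries, a log2 fold change of -2.05. The copper chaperone ATOX1 fell by 1.67 in resistant cells. ATP7A, the related pump, fell by 1.05 and COMMD1 rose by 1.02, and both calls were lost in the test against a 1.5-fold change. Over all 10 lists, 96 of 115 genes in the files were tested, 26 were higher and 50 lower, 15 of the 96 having passed the filter through 1 group only. Over all tested genes 67.7% were called, 35.2% higher and 32.5% lower. The median log2 fold change was -0.61 on the lists and 0.08 over all tested genes.

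**Figure D4:**
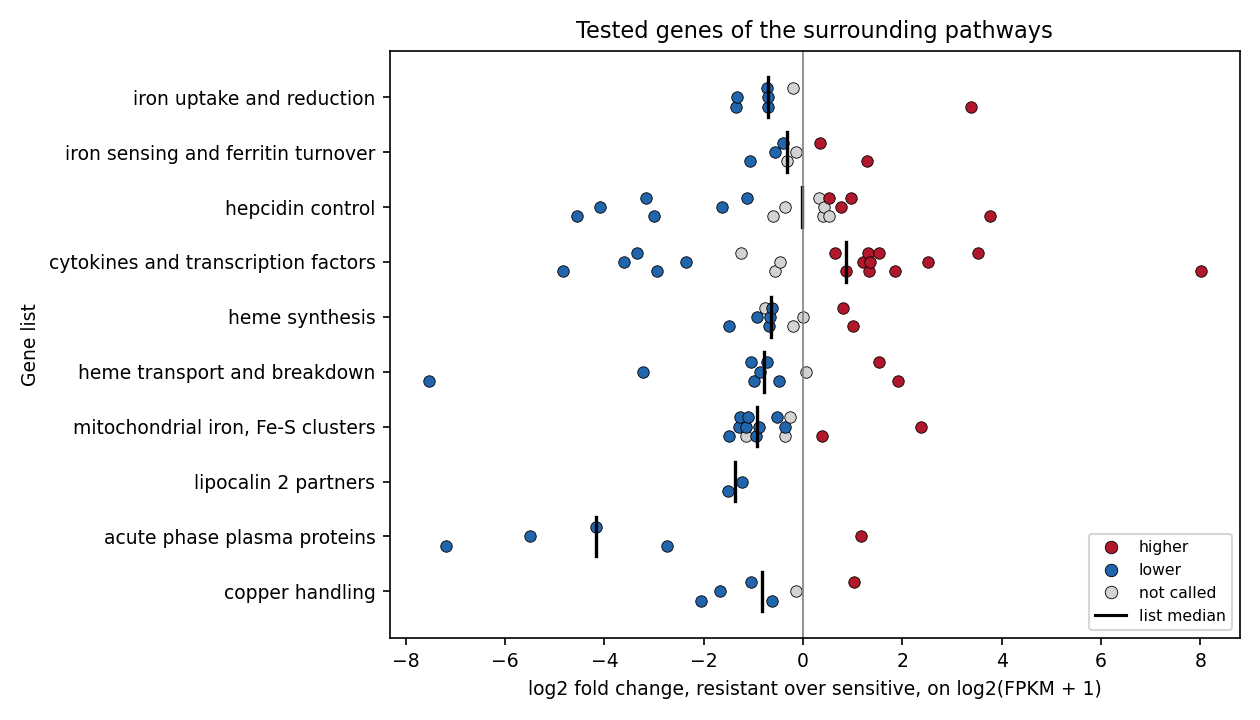
Log2 fold change, resistant over sensitive, of every tested gene on the 10 surrounding lists, with a black line at the list median. IL6 at 8.02 and AMBP at -7.54 are the ends of the range, and the list of cytokines and transcription factors has a median of 0.86.

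Libraries within a group did not stand alike. Resistant 2 read 0.319 FPKM of TF and 0.150 FPKM of CP, above resistant 1 and 3. As a share of the mean of sensitive libraries, TF stood at 0.161, 0.793 and 0.228% and CP at 0.152, 0.967 and 0.362% in resistant libraries 1 to 3. Over 45 genes that reached 50 FPKM in each sensitive library, chosen for a mean of at most 2% of the sensitive mean in resistant 1 and 3, the median share was 0.307, 1.02 and 0.364%. The part of this difference in the results was not tested. Sensitive 3 read FTL at 151% and FTH1 at 127% of the mean of sensitive 1 and 2, and TFRC at 56.4%, SLC40A1 at 19.9% and CP at 38.1% of it. HAMP, at 2.99 FPKM, stood at 284% of that mean. TF, at 95.4%, stood close to the other sensitive libraries.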

How the data were processed

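RNA-seq of 6 libraries was analysed, grouped by the sample titles. The authors deposited 1 table of values per library, and the numbers read as FPKM (a value the authors scaled by gene length and by depth), which their values alone do not separate from RPKM. Reads were processed with cutadapt and HISAT2, per the submitters' processing notes. Strand, annotation, build, counting program and tool versions were not given in the sources used here. Thus reads of a gene and its antisense partner may not be told apart. No pair of libraries shared an identical nonzero value.

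Genes that reached 1 FPKM in 3 or more libraries were tested by limma 3.58.1 under R 4.3.3 (limma-trend, all 6 libraries, group only, 4 residual and 2.75 prior degrees of freedom) on log2(FPKM + 1), a pseudocount of 1, and called at a Benjamini-Hochberg adjusted p under 0.05 over 11694 genes. The script was tested on simulated data. Ratios were compared by an exact two-sided permutation test over 20 regroupings. Intervals are 95%. Plots used matplotlib 3.10.9 and tables used scipy 1.17.1, numpy 2.4.6 and pandas 2.3.3 under Python 3.11.15. Depth is known only as relative steps of the values, so no counting interval is given.

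The members and lists were chosen with earlier results of these data known. Genes named are all members, paralogs with a mean of at least 1 FPKM, and up to 4 called genes of each list by size of change; ACO1, HEPH, HPR and SERPINA3 were named after their values were seen. A gene that the rule names is not reported here. Promoter sequences are from RefSeq (GRCh38.p14), and iron responsive elements were read from GENCODE release 29 transcripts (GRCh38). Alternatives were scaling to the geometric mean library, quantile normalization, rescaling without the 13 mitochondrial mRNAs, limma without the trend, robust limma-trend, the replicate number as a block, each library left out, a pseudocount of 0.1, no filter, a filter at a mean of 5 FPKM and a test against a 1.5-fold change.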

Additional observations from a re-analysis of the deposited data

How the results depend on the processing

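All calls of TF, TFRC, SLC40A1, LCN2 and CP held under all 16 alternatives and that of HPX under the 15 that tested it. Of these, all but TFRC passed the filter through 1 group only, which fixed their direction, so their held calls add no support. FTH1 lost its call in the test against a 1.5-fold change (log2 fold change 0.71, adjusted p = 0.386), which leaves 1 member higher, and its adjusted p was 1.85e-05 to 0.386 over the alternatives. FTL turned to 0.20 under quantile normalization; the cause was not tested. Members called lower were 4 with a mean of at least 5 FPKM, which drops HPX, and 6 with no filter, which adds HAMP. The count over all genes, 7920, was 4973 of 7396 tested with a mean of at least 5 FPKM, 4357 in the test against a 1.5-fold change, 10039 of 22521 with no filter and 6675 to 9442 with 1 library left out. In the 1.5-fold test, genes of the 10 lists were 17 higher and 29 lower, against 23 to 30 and 41 to 59 with 1 library left out. Log2 differences of ratios with 1 library left out were -0.98 to -0.83 for FTL over FTH1, -3.74 to -3.06 for TFRC over FTH1 and -6.39 to -5.31 for TF over TFRC. With a pseudocount of 0.1, TF over TFRC was -4.77, outside that range, while FTL over FTH1 was -0.918 and TFRC over FTH1 was -3.35. TF read at most 0.319 FPKM in resistant libraries, so the size of its ratio depends on how values near 0 are treated. Depth limits HAMP, HP and every value near 0.

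With the replicate number as a block, 7193 genes were called and no call of a member changed. The higher calls became 1 on the list of iron sensing and ferritin turnover and 1 on that of mitochondrial iron. The numbers were not taken to pair the libraries: deviations from the group mean correlated at -0.422, 0.0717 and -0.228 for the same-numbered pairs 1 to 3, and libraries did not each correlate best with their own number.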
